A study of Arabidopsis thaliana with 8 samples.

Results

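Wild-type seedlings of Arabidopsis thaliana (ecotype Col-0) were profiled by RNA sequencing in 3 libraries, out of 8 in the series. They were chosen by their titles and by their genotype label, and the RNAi libraries were not used here. Seeds on diluted Murashige and Skoog medium lay for 3 days at 4 °C, and the plants then grew at 22 °C for 7 days under a cycle of 16 h light and 8 h dark. Each library was made from 1.5 µg of total RNA. The labels give no transgene, mutation or treatment for these plants, no hour of harvest and no number of seedlings per library. They also do not say that the replicates came from separate plates, so the spread between libraries may be technical. The table holds 32833 genes, and each value is an FPKM, a count of fragments scaled by gene length and by library size. FPKM can therefore be compared between genes. The summed FPKM was 620395, 610174 and 626265 in replicates 1, 2 and 3, so small differences between libraries are less certain. Values below are in the order of replicates 1, 2 and 3, and the numbers carry no order.

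A seedling of this age lives from its own photosynthesis. Most proteins of the light-harvesting antenna, the photosystems and the Calvin cycle are encoded in the nucleus, made in the cytosol and imported into the chloroplast, while the plastid's own chromosome encodes the reaction centres and the large Rubisco subunit. Growing cells also make many ribosomes, which need equal amounts of their numerous protein subunits. Roots, guard cells, veins and meristems are small parts of a whole seedling, so their marker transcripts are diluted by those of the leaf mesophyll. In such bulk samples fewer cells of a type and less RNA per cell cannot be told apart.

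The stretches below show the words found in the promoters of 3 gene groups on which the results turn: the photosynthesis genes, which were at the top of the levels, the cytosolic ribosomal protein genes, and the genes of phosphate starvation, which differed widely between the libraries. Each is the 250 bases before the annotated start of the gene, read 5′ to 3′ on the strand of the gene from the RefSeq TAIR10.1 genome. For the first 2 groups they belong to the 2 highest members that hold both words there, and for the last group to the 3 highest members that hold the word and differed at least 2-fold between libraries. Capitals mark, on either strand, CACGTG and GATAA in the stretch of LHCB6 at chr1:5447881-5448130 on the minus strand, and in that of RBCS2B at chr5:15382072-15382321 on the minus strand. They mark AAACCCTA and TGGGCC in RPL14B, at chr4:13595253-13595502 on the minus strand, and in RPL37B, at chr1:19476235-19476484 on the minus strand. They mark GNATATNC, where N is any base, in AT4, at chr5:894332-894581 on the plus strand, in GDPD1, at chr3:350011-350260 on the minus strand, and in PS2, at chr1:27466349-27466598 on the minus strand.
LHCB6: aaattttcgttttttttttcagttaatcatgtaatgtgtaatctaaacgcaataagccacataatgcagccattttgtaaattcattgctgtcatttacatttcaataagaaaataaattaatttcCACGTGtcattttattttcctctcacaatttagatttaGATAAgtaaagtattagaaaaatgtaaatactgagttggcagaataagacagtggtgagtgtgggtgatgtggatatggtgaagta
RBCS2B: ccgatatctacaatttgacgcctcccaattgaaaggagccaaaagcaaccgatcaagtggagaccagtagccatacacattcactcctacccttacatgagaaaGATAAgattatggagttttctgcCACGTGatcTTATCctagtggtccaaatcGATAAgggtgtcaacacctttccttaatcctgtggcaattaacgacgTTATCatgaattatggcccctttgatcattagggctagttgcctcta
RPL14B: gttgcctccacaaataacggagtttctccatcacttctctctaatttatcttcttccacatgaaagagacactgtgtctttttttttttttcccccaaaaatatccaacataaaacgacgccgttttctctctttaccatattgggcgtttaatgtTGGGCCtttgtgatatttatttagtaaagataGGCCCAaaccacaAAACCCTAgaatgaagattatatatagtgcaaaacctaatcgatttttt
RPL37B: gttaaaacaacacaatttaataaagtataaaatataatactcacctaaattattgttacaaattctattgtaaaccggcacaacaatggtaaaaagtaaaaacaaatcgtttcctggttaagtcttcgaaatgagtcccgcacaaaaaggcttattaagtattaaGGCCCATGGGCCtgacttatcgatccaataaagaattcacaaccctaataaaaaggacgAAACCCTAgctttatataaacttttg
AT4: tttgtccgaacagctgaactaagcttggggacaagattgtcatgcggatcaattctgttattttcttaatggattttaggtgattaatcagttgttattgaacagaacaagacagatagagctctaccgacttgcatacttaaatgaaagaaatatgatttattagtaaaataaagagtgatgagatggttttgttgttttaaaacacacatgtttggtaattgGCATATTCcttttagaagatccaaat
GDPD1: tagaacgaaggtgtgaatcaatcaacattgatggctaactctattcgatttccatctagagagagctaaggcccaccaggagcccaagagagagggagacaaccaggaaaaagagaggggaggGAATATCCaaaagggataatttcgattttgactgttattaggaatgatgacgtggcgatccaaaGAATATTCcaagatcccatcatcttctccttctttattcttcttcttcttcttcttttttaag
PS2: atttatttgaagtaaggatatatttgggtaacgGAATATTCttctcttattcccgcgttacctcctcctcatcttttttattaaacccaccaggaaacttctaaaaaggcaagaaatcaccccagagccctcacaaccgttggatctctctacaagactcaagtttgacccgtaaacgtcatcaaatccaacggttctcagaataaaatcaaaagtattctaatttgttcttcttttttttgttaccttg
CACGTG is known as the G-box, read by light-responsive bZIP and bHLH factors, and GATAA as the core of the I-box of light-regulated genes. AAACCCTA is known as the telo-box and TGGGCC as a site II element, both common in genes of the translation machinery, and GNATATNC is the word bound by PHR1, the regulator of the phosphate starvation response.

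The shares of promoters with these words were counted over 300 bases, 250 before and 50 after the start, for 27413 nuclear protein-coding genes whose coordinates were the same in the table and in TAIR10.1. CACGTG was present in 20 of 63 promoters of photosynthesis genes (31.7%), in 12.2% of the promoters of the highest 5% of genes (at least 70.7 FPKM) and in 7.68% of all promoters. GATAA was present in 55 of the 63 (87.3%), in 67.3% of the highest 5% and in 60.8% of all promoters. In the RBCS2B stretch CACGTG begins 123 bases before the start and GATAA is found 4 times, and in the LHCB6 stretch CACGTG begins 124 bases before the start. Among 248 promoters of cytosolic ribosomal protein genes, AAACCCTA was present in 115 (46.4%), TGGGCC in 154 (62.1%) and TGGGCT in 127 (51.2%), against 6.21%, 15.5% and 14.2% of all promoters. AAACCCTA was found in 0 of the 63 photosynthesis promoters, and it was more frequent than among all promoters both in genes at 0 in all 3 libraries (9.34%) and in the highest 5% (10.6%). Among genes at 1 FPKM or more in all 3 libraries it was less frequent (5.62%). TGGGCC was present in 6.16% of genes at 0, 19.8% of genes at 1 FPKM or more in all 3 libraries and 28.9% of the highest 5%. TATAAA was present at nearly the same share in the highest 5% (52.3%) and in all promoters (52.2%).

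Few genes supplied much of the transcript pool. In the 3 libraries 684, 714 and 679 genes held the upper 50% of the summed FPKM, and the 20 highest genes alone held 14.3%, 14.1% and 14.3%. The 100 highest held 28.4%, 27.8% and 28.1%. In all, 17809 genes (54.2%) reached 1 FPKM in all 3 libraries and are called detected below, while 7796 (23.7%) were at 0 in all 3. Another 1204 genes (3.67%) reached 1 FPKM in 1 or 2 libraries and not in all. The median detected gene stood at 11.02 FPKM, and 48, 49 and 49 genes reached 1000 FPKM. At the implied depth of 46490000, 49010000 and 42280000 fragments, 1 fragment on a gene of median length (1333 bases) was worth 0.0161, 0.0153 and 0.0177 FPKM. For such a gene the threshold of 1 FPKM lies well above a single fragment. Transfer RNA, small nucleolar RNA and microRNA genes are shorter, with medians of 73, 92 and 145 bases. For them the threshold stands for fewer fragments.

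**Figure D1:**
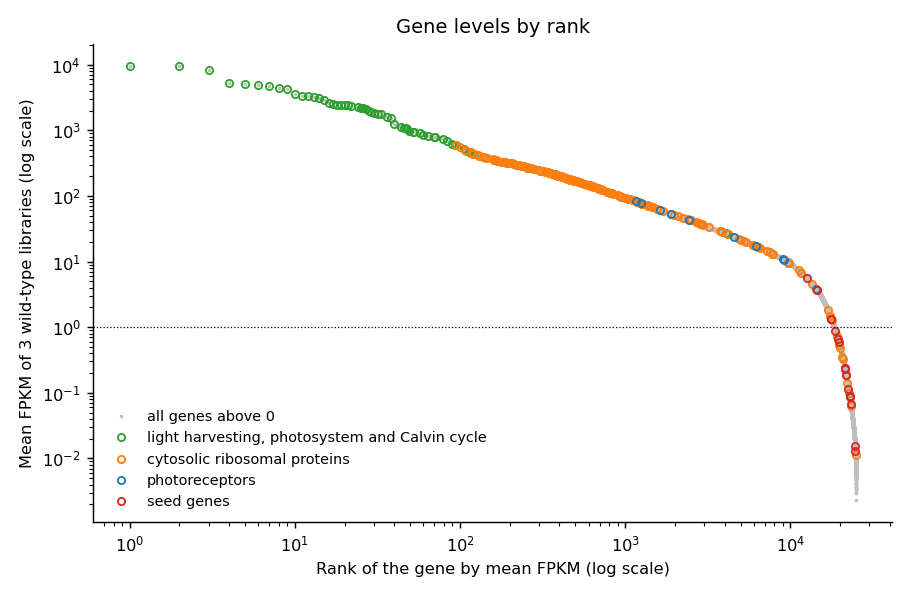
Mean FPKM of the 3 wild-type libraries against the rank of the gene, both on log scales, for every gene above 0 (grey) and for 4 groups (open circles); the dotted line is 1 FPKM. The photosynthesis genes occupy the 20 highest ranks, the cytosolic ribosomal proteins begin at rank 95, and the seed genes lie at the low end.

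Nuclear genes of photosynthesis filled the top. All 20 of the highest nuclear genes and 34 of the 40 highest belonged to the 63 genes of the light-harvesting, photosystem and Calvin cycle lists, all 63 were detected, and together they held 21.7%, 21.1% and 21.5% of the summed FPKM. RBCS-1A, a small subunit of Rubisco, the enzyme that fixes CO2, was first with 9696, 9280 and 9910 FPKM. It lies at chr1:25048158-25049667. LHCB1.3, a chlorophyll-binding protein of the main antenna of photosystem II, followed with 9421, 9174 and 9689 FPKM, and LHB1B2, another of the same antenna, with 8261, 8076 and 8560 FPKM. The lowest of these 9 values lay above every value of the next gene, PSBR, a small photosystem II subunit with 5453, 5194 and 4895 FPKM.

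The antenna had the highest levels of all. The 21 light-harvesting genes had a median of 2874 FPKM and held 10.2% ± 0.0932 of the summed FPKM (SD, n = 3). Within the list the levels ranged from 9428 ± 258 FPKM for LHCB1.3 to 16.8 ± 2.77 FPKM for LHCB4.3. The next lowest were the minor members LHCB7 (26.8 ± 2.17), LHCA6 (110 ± 8.18) and LHCA5 (131 ± 5.41). LHCA4, a photosystem I antenna protein, had 4951 ± 202 FPKM, and LHCB3 4703 ± 135 FPKM. Their ranges overlapped. LHCB1.3 lies beside LHCB1.1 (5114 ± 122 FPKM) and LHCB1.2 (3127 ± 118 FPKM) within chr1:10472280-10479114. These neighbours are near-identical copies, so the split of fragments among them is uncertain. LHCB1.2 (AT1G29910) and LHCB1.1 (AT1G29920) share the name LHCB1.1 in the authors' table.

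Photosystem subunits were nearly as high. The 23 genes had a median of 1586 FPKM, from PSBR (5181 ± 279) to PSAE-2 (514 ± 18.0). PSAF, which docks plastocyanin to photosystem I, had 2592, 2422 and 2561 FPKM, and PSBO1, which stabilises the water-splitting cluster, had 2524, 2437 and 2435 FPKM. PSAG stood at 2415 ± 37.2 FPKM. NPQ4, the sensor of excess light known as PsbS, had 984, 990 and 991 FPKM, a CV of 0.409%. PSAL was the exception in spread, with 2439 FPKM in replicate 1 against 1584 and 1561 FPKM in the other libraries.

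The 19 Calvin cycle genes had a median of 792 FPKM. Rubisco activase (RCA) had 4398, 4285 and 4355 FPKM, and the aldolase FBA2 2286, 2311 and 2331 FPKM. The lowest member was CP12-2, a small regulator of the cycle, at 144 ± 10.5 FPKM. Of the 4 small Rubisco subunit genes, RBCS-1A held the most, followed by RBCS3B (4338, 4058 and 4347 FPKM), RBCS2B (2638, 2506 and 2602 FPKM) and RBCS1B (748, 279 and 818 FPKM). RBCS1B was low in replicate 2 only, and its CV of 47.7% contrasts with 2.65% to 3.87% for the other 3. RBCS1B, RBCS2B and RBCS3B stand in a row at chr5:15376988-15385320 and are near copies of each other, so the division of fragments among them is uncertain. The sum of the family was 17420, 16123 and 17678 FPKM, a CV of 4.88%.

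Photorespiration, which salvages the product of Rubisco's reaction with oxygen, was also fully detected. Its 12 genes had a median of 603 FPKM, led by GGT1 (1120 ± 23.6), SHM1 (893 ± 5.04), AGT (818 ± 20.3) and GOX1 (813 ± 9.25), with PGLP1 lowest at 65.7 ± 6.51 FPKM. The highest nuclear genes outside the photosynthesis lists were MT2B, a metallothionein, at 2255 ± 107 FPKM, DRT112, a plastocyanin, at 1817 ± 96.1 FPKM, and CRD1, an enzyme of chlorophyll synthesis, at 1695 ± 10.6 FPKM. They were followed by AT1G09310 (1644 ± 84.8), BGLU23 (1582 ± 189), a beta-glucosidase of ER bodies, and the ferredoxin FD2 (1353 ± 90.4). BGLU23 had 1587, 1768 and 1390 FPKM, the widest spread of these 6.

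**Figure D2:**
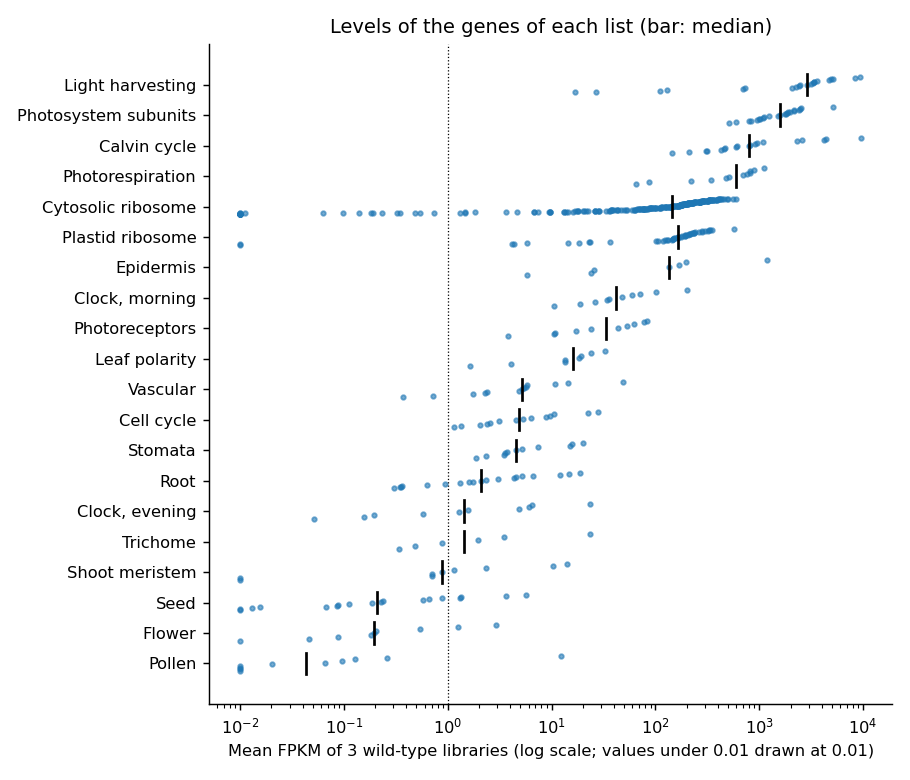
Mean FPKM of each member (points, n = 3 libraries) and the median of each list (bar) on a log scale, with the dotted line at 1 FPKM. The photosynthesis lists lie furthest right, with medians from 792 to 2874 FPKM. The shoot meristem, seed, flower and pollen lists have medians left of 1 FPKM.

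Cytosolic ribosomal proteins, found by their description, were the next large group. Of 251 genes 226 were detected and 13 were at 0 in all 3 libraries, and their median was 143 FPKM. They held 6.21% ± 0.332 of the summed FPKM. RPS8A was highest with 577, 565 and 639 FPKM, then RPL19A (558 ± 32.3), RPL14B (500 ± 34.0) and RPS23B (489 ± 44.97). RPL14B and RPL37B, whose promoters are shown above, had 497, 468 and 536 FPKM and 410, 391 and 447 FPKM. Many of these proteins are encoded by several near-identical copies, and copies such as RPL30A, RPL8B and RPL13C were at 0 in every library. The 49 nuclear genes of plastid ribosomal proteins had a median of 165 FPKM, 47 were detected, and they held 1.36% ± 0.0666 of the summed FPKM. RPS16-1 led them with 561, 495 and 657 FPKM.

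The plastid chromosome gave little of the signal. Its 133 genes held 0.264%, 0.236% and 0.145% of the summed FPKM, and its protein-coding genes 0.0918%, 0.0872% and 0.0796%. The 5 highest plastid genes were the 2 copies each of the 23S and 16S ribosomal RNA and PSAJ. RRN23S.2 had 258, 248 and 93.4 FPKM, and RRN16S.2 234, 183 and 84.4 FPKM. PSAJ, a photosystem I subunit, had 77.4, 64.8 and 81.8 FPKM, and PSBA, the D1 protein of photosystem II, 89.5, 73.5 and 42.0 FPKM. RBCL, the large Rubisco subunit, stood at 18.9, 14.5 and 8.99 FPKM, against 17420, 16123 and 17678 FPKM for the small subunits. Whether RNA with a poly(A) tail was selected is not stated in the labels, and plastid messages mostly lack such a tail, so the plastid values are no measure of plastid RNA in the plant.

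Ribosomal RNA was lowest in replicate 3 when summed over the nuclear, plastid or mitochondrial genes. The 15 ribosomal RNA genes held 0.412%, 0.401% and 0.192% of the implied fragments. The plastid ribosomal RNA genes held 0.166%, 0.144% and 0.0598% of the summed FPKM. The mitochondrial chromosome, with 152 genes of which 14 were detected, held 0.0277%, 0.0241% and 0.0238%. Its 5 highest genes were RRN26 (28.1 ± 8.67), RRN18 (27.8 ± 3.90), the transfer RNA genes ATMG09730 (13.4 ± 1.44) and ATMG09450 (13.4 ± 1.28), and RRN5 (9.42 ± 2.78 FPKM). Among its 120 protein-coding genes 7 were detected.

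By type of gene, protein-coding genes held 98.9% of the summed FPKM, and 17346 of 27628 (62.8%) were detected. Long non-coding RNA genes were mostly silent: 171 of 3481 (4.91%) were detected and 67.3% were at 0 in all 3 libraries. The highest were AT1G25098 (58.7, 59.6 and 73.3 FPKM), AT3G06355 (47.3 ± 0.522) and AT2G08665 (45.4 ± 6.73). AT3G06355 spans the ribosomal RNA gene AT3G41979, and AT2G08665 lies over LHB1B2 (8299 FPKM) on the opposite strand. Fragments of overlapping genes cannot be told apart here, so the values of AT3G06355 and AT2G08665 are uncertain. Of 299 other non-coding RNA genes 85 were detected, led by AT4G13495 (312, 266 and 298 FPKM), GUT15 (110 ± 8.82) and AT3G12965 (93.4 ± 11.9).

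Values of small RNA genes may come from the RNA itself, from a precursor or from an overlapping transcript, and which applies was not tested. Of 325 microRNA genes 44 were detected, led by AT4G04125 (67.4, 91.0 and 118 FPKM), MIR414 (75.7 ± 4.37) and MIR850A (49.5 ± 4.95). Small nucleolar RNA genes were detected in 114 of 287 cases (39.7%), led by AT1G06283 (54.0 ± 5.30), AT3G47348 (38.7 ± 8.30) and AT1G74453 (36.6 ± 1.34). Of 82 spliceosomal snRNA genes 3 were detected. The highest of the 82 by mean, AT3G07265, had 15.01, 12.1 and 15.4 FPKM, AT1G04733 had 0.114, 3.89 and 4.76 FPKM, and U12 had 2.29 ± 0.659 FPKM. Transfer RNA genes were detected in 15 of 689 cases (2.18%); after the mitochondrial pair above the highest was the plastid gene TRNS.1 at 10.5 ± 1.48 FPKM. The 27 genes annotated as non-translating coding sequences behaved more like protein-coding genes, with 18 detected, led by AT5G26800 (26.2 ± 2.64), AT4G16150 (24.9 ± 0.463) and AT4G16360 (23.8 ± 0.462).

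The 5 nuclear chromosomes were alike. Between 52.5% (chromosome 2) and 56.1% (chromosome 5) of their genes were detected, and the median detected gene lay between 10.7 and 11.5 FPKM. Chromosome 1 held 29.5% of the summed FPKM, and its share was 29.5%, 29.4% and 29.6% in the 3 libraries. The share of detected protein-coding genes varied more along each chromosome. Over 118 windows of 1 Mb with at least 20 genes the median share was 62.9% (quartiles 55.6% and 68.9%), and 23 windows were under 50%. Those 23 also held fewer genes, with a median of 85 against 273 in the rest.

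The lowest window of each chromosome lay inside it, near the known position of the centromere. Its share was 27.3% of 22 genes on chromosome 1, 7.44% of 121 genes on chromosome 2, 3 of 30 genes on chromosome 3, 30.3% of 33 genes on chromosome 4 and 30.8% of 26 genes on chromosome 5. The highest shares, from 74.3% to 76.1%, lay out on the arms. The window of chromosome 2, chr2:3000001-4000000, is known to hold a large insertion of mitochondrial DNA. Of its 9 detected genes the highest were RPS16A, a cytosolic ribosomal protein (67.4, 72.5 and 75.3 FPKM), AT2G07360 (23.2 FPKM) and PFD1, a prefoldin subunit (10.98 FPKM). Copies of mitochondrial genes there share sequence with the mitochondrial chromosome, so their values are uncertain.

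**Figure D3:**
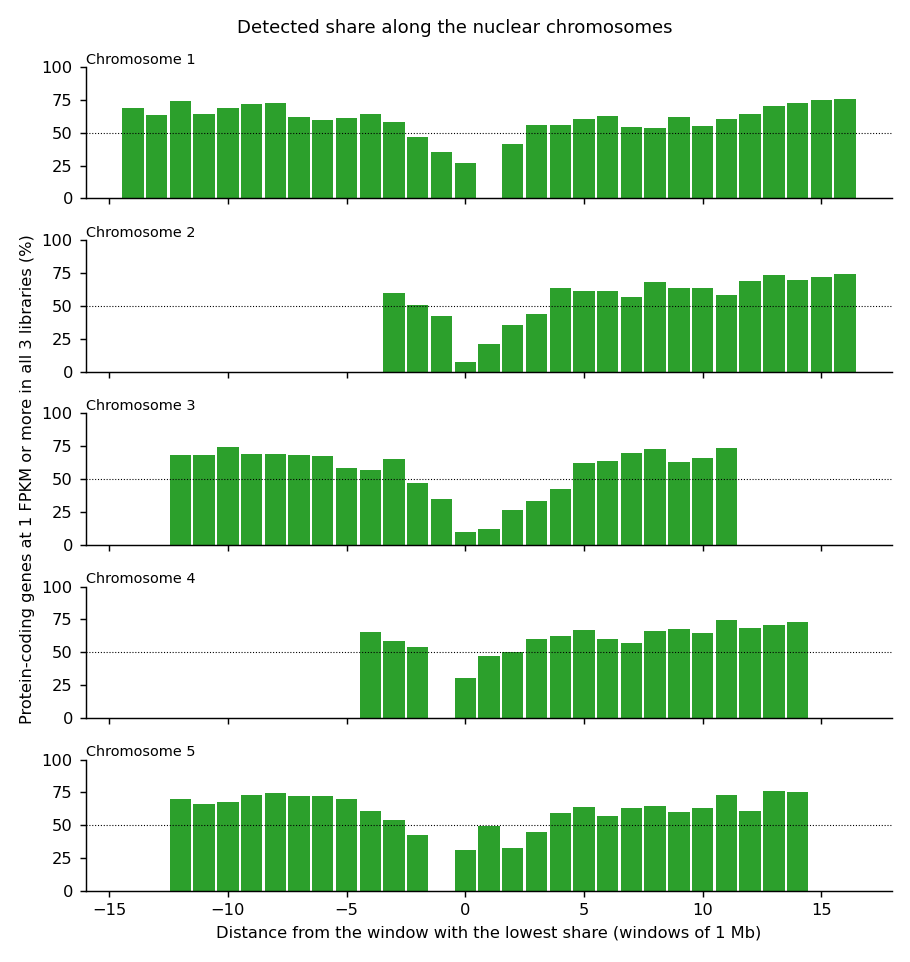
Share of protein-coding genes at 1 FPKM or more in all 3 libraries (y, in %) in windows of 1 Mb with at least 20 genes, against the distance from the window with the lowest share (x, in windows of 1 Mb), for chromosomes 1 to 5. The lowest window, at 0 on the x axis, is deepest on chromosome 2 at 7.44%; the dotted line is 50%.

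Gene families differed more than chromosomes. Among 187 protein domain families with at least 40 genes, the least detected was the self-incompatibility S1 family, with 0 of 65 genes, 59 of them at 0 in all 3 libraries, followed by the prolamin-like family with 1 of 102. Both are known from reproductive tissue. The F-box associated domains FBA_3 and FBA_1 had 11 of 125 and 21 of 171 genes detected, the C1_2 domain 19 of 151 and the MADS-box (SRF-TF) family 14 of 104. At the other end, 56 of 59 mitochondrial carriers, 41 of 44 AAA_5 ATPases, 54 of 59 TPR_8 repeat proteins and 91 of 102 DEAD-box RNA helicases were detected. The median detected gene of these families was not high, at 8.98 FPKM for the carriers and 11.5 FPKM for the helicases.

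Among 114 metabolic and information pathways with at least 15 genes, the antenna proteins had the highest median, 2661 FPKM, and the ribosome the next, 106 FPKM over 353 genes. Glucosinolate synthesis, the pathway of the mustard-oil defence compounds of this plant family, came next with 71.8 FPKM and 16 of 17 genes detected. Carbon fixation (57.6), photosynthesis (55.1, plastid genes included) and sulfur metabolism (45.2) followed. The proteasome had 58 of 59 genes detected and a median CV of 3.94%. The lowest medians were those of diterpenoid synthesis (1.03 FPKM, 8 of 22 detected), zeatin synthesis (1.07, 10 of 20) and cutin, suberin and wax synthesis (1.13, 14 of 30).

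All listed markers of the shoot epidermis, the stomata and leaf polarity were detected, against 62.8% of all protein-coding genes. All 7 epidermis genes were detected, led by the lipid transfer protein LTP1 (1264, 1131 and 1164 FPKM), CUT1 (196 ± 18.3), PDF1 (170 ± 11.6) and FDH (135 ± 11.2), with CER1 lowest at 5.82 ± 0.872 FPKM. All 11 stomatal genes were detected as well, from MYB60 (19.9 ± 3.64), TMM (15.8 ± 0.581), FAMA (15.01 ± 1.51) and KAT1 (7.42 ± 0.107) to EPF1 (1.86 ± 0.0786). The early regulators of the stomatal lineage, SPCH (3.29, 3.67 and 3.66 FPKM) and MUTE (2.54, 2.19 and 2.21 FPKM), were among them. All 8 leaf polarity genes were detected, led by AS1 (32.5 ± 0.959), FIL (24.2 ± 0.493), YAB3 (19.3 ± 2.46) and PHB (18.5 ± 0.482), with AS2 lowest at 1.65 ± 0.381 FPKM.

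For comparison with the lists that follow, 62.8% of all protein-coding genes were detected. Vascular genes were detected in 11 of 13 cases. SUC2, the sucrose carrier of phloem companion cells, had 50.6, 51.2 and 45.2 FPKM, XCP2 14.4 ± 1.87 and HB-8 10.8 ± 0.195 FPKM, while VND7, a switch of xylem vessel fate, had 0.368 ± 0.0872 FPKM. Trichome genes were detected in 3 of 6 cases, TTG1 (23.5 ± 1.39), MYB106 (3.47 ± 0.454) and TRY (1.97 ± 0.107), with ETC1 at 0.885 ± 0.352 and GL3 lowest at 0.338 ± 0.0801 FPKM. In the shoot meristem list 3 of 9 genes were detected, KNAT1 (14.2 ± 2.19), CLV1 (10.3 ± 0.170) and STM (2.33 ± 0.342). CUC3 stood at 1.15 ± 0.243 FPKM, and WUS and CLV3, which mark a handful of cells at the centre of the meristem, were at 0 in every library. All 14 genes of the cell cycle list had a mean of at least 1 FPKM and 12 were detected, led by CDKA1 (27.8 ± 0.779), KRP1 (22.3 ± 1.83), CYCD3;1 (10.7 ± 0.986) and PCNA1 (9.74 ± 0.245), with CYCB1;1 lowest at 1.14 ± 0.237 FPKM.

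Root genes were detected at a share near that of protein-coding genes, but their median was lower. Of 19 root genes 13 were detected (68.4%), against 62.8% of all protein-coding genes. Their median was 2.09 FPKM, against 4.14 FPKM for protein-coding genes and 2.13 FPKM over all genes in the table. PRP3, a root hair protein, was highest (19.8, 25.2 and 11.6 FPKM). SCR had 14.7 ± 0.108, CASP1, which builds the Casparian strip of the endodermis, 12.0 ± 2.93, and SHR 6.57 ± 0.0804 FPKM. SMB, a root cap factor, was lowest at 0.302 ± 0.126 FPKM. The summed root list was 78.3, 98.1 and 67.6 FPKM, and 10 of the 13 root genes with a mean of at least 1 FPKM were highest in replicate 2, against 5400 of all 18445 genes at that level.

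Genes of flowers, pollen and seeds, which a seedling of this age lacks, were at low levels. Of 9 flower genes 2 were detected, SEP3 (2.89 ± 0.543) and PI (1.26 ± 0.112), with SEP1 at 0.540 ± 0.0477, SHP1 at 0.205 ± 0.0236 and STK at 0. Of 10 pollen genes 1 was detected, the actin ACT11 (12.3 ± 1.38), which is not limited to pollen. The next were CNGC18 (0.258 ± 0.144), AGP11 (0.129 ± 0.0683) and ACT12 (0.0966 ± 0.0736), and DUO1 and 3 others were at 0. Of 18 seed genes 0 were detected, but the list was not even across libraries, with sums of 37.7, 2.97 and 4.66 FPKM. CRA1, a cruciferin storage protein, had 16.0 FPKM in replicate 1 against 0.241 and 0.723 FPKM in the others, and CRC, another cruciferin, had 10.7, 0.0227 and 0.132 FPKM. OLEO2 (2.93, 0.265 and 0.767 FPKM) and EM6 (2.301, 0.850 and 0.887 FPKM) were highest in replicate 1 too, while FUS3 and LEC1, the regulators of seed maturation, were at 0 in every library. What set replicate 1 apart in these seed genes was not tested.

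By their medians, clock genes of the morning stood above those of the evening. All 10 genes that peak in the morning were detected, with a median of 41.7 FPKM, against 6 of 10 and 1.43 FPKM for the list of evening genes. In the morning list LNK2 had 208, 178 and 221 FPKM, CCA1 104, 99.4 and 100 FPKM, LNK1 70.3, 75.8 and 65.9 FPKM and LHY 59.1, 59.1 and 62.2 FPKM. RVE4 (47.7 ± 6.03), RVE1 (35.7 ± 4.50), PRR7 (34.4 ± 3.46), RVE8 (26.0 ± 2.15), PRR9 (19.0 ± 1.50) and RVE6 (10.6 ± 0.745) followed.

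In the evening list ZTL, whose transcript is known to cycle little, was highest with 25.8, 22.0 and 23.1 FPKM, above PRR9 and RVE6 of the morning list. ELF3 (6.47 ± 0.412), GI (6.06 ± 0.890), TOC1 (4.82 ± 0.242), LUX (1.57 ± 0.302) and ELF4 (1.28 ± 0.394) were detected. PRR5 (0.578 ± 0.160), PRR3 (0.197 ± 0.102), BOA (0.156 ± 0.0495) and FKF1 (0.109, 0.0471 and 0 FPKM) were not. CCA1 was above TOC1, its counterpart in the evening, in every library. The labels do not state the hour of harvest, so these levels belong to 1 unknown time of day.

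All 10 photoreceptors were detected. The blue light receptors PHOT1 (75.9, 92.7 and 80.4 FPKM), CRY1 (74.7, 76.0 and 80.4), PHOT2 (62.9, 59.6 and 62.5) and CRY2 (52.3, 51.1 and 55.6) were above UVR8 (43.5 ± 2.22), the receptor of UV-B. The phytochromes, which sense red and far-red light, were lower: PHYA 24.0 ± 0.679, PHYB 17.4 ± 5.90, PHYE 10.8 ± 0.472, PHYC 10.6 ± 0.654 and PHYD 3.82 ± 0.107 FPKM. PHOT1 and CRY1 overlapped, as did PHYE and PHYC. PHYB had 10.5 FPKM in replicate 2 against 20.5 and 21.0 FPKM in the others, so in that library it was no higher than PHYE.

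Of 12 genes of flowering time 7 were detected, against 62.8% of all protein-coding genes. SVP, a repressor, was highest with 36.5, 43.8 and 32.3 FPKM, then SOC1 (11.9 ± 1.88), the repressor FLC (7.12 ± 1.24) and SPL9 (6.24 ± 0.481). FT, the mobile flowering signal, had 0.276 ± 0.0670 FPKM, LFY 0.0845 ± 0.00988 FPKM, and TSF was lowest, at 0 in every library.

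Of 1503 genes annotated as DNA-binding transcription factors 912 (60.7%) were detected, against 62.9% of the other protein-coding genes. Their median detected level was 8.92 FPKM, against 11.4 FPKM. The highest, which were named after their values were seen, were RAP2-3 (281 FPKM), BBX24 (245 FPKM), a regulator of the response to light, and COL3 (168 FPKM). GLK2, an activator of the photosynthesis genes, had 190, 193 and 114 FPKM and was lower in replicate 3 while the light-harvesting list was not.

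Level went with gene structure. Among protein-coding genes with 1 exon 40.3% of 5198 were detected, and the share was higher in each further class, 49.3% with 2 exons, 62.8% with 3 to 5, 78.2% with 6 to 10 and 86.8% of 3633 with 11 or more. The median detected gene changed less, from 6.96 FPKM with 1 exon to 12.8 FPKM with 6 to 10. The share of genes at 100 FPKM or more peaked in the middle, at 4.86% with 3 to 5 exons, against 1.87% with 1 exon and 2.06% with 11 or more. The 48 protein-coding genes at 1000 FPKM or more had a median length of 1207 bases and 3 exons, against 1738 bases and 6 exons for genes between 10 and 100 FPKM.

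The spread between the 3 libraries was small for most genes. Over 18445 genes with a mean of at least 1 FPKM the median CV was 7.25%, while the implied fragment numbers alone would give 3.41%. The CV was under 10% for 12008 genes (65.1%) and over 50% for 248 (1.34%). It was lower at higher levels, with a median of 35.9% for genes between 0.1 and 1 FPKM, 15.8% between 1 and 3, 5.79% between 10 and 30 and 2.78% at 1000 FPKM and over. Counting accounted for a falling part: the median gene spread 1.72 times as much as counting alone between 1 and 3 FPKM and 10.95 times at 1000 FPKM and over.

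Few genes differed 2-fold between any pair of libraries. On log2(FPKM + 1), 125 of 18445 genes (0.678%) did so between replicates 2 and 1, 191 (1.04%) between replicates 3 and 1 and 188 (1.02%) between replicates 3 and 2. Pearson's r over these genes was 0.989, 0.986 and 0.985, given as a description across genes. Replicate 3 was the farthest of the 3 for 40.9% of genes, replicate 2 for 30.4% and replicate 1 for 28.8%. In the 2 pairs with replicate 3 more of these genes were lower than higher in it, 120 against 71 and 137 against 51. The added 1 shrinks ratios at low levels. As a plain ratio of FPKM, 707 of the 18445 genes (3.83%) differed at least 2-fold between the highest and the lowest library.

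**Figure D4:**
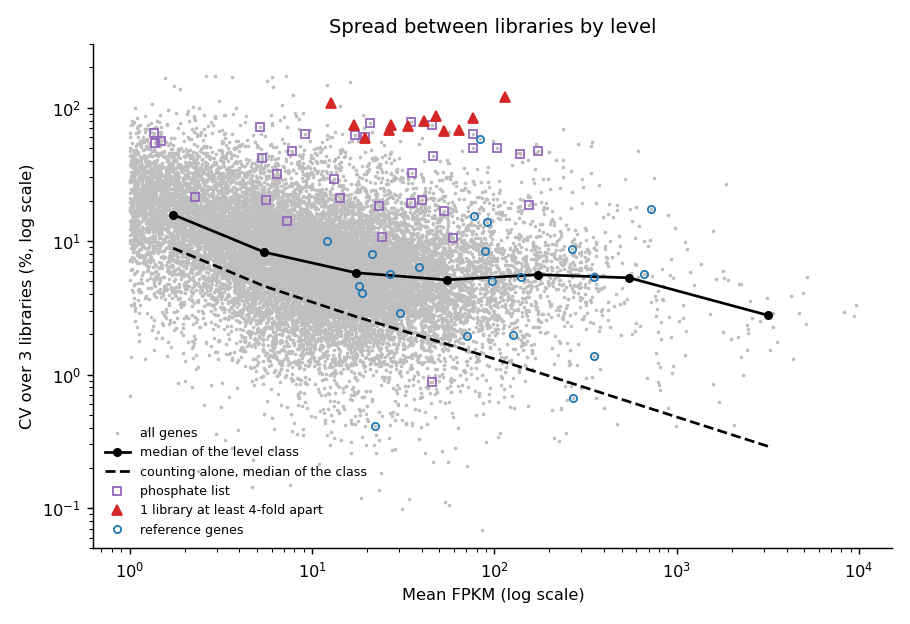
CV over the 3 libraries (y, %, log scale) against mean FPKM (x, log scale) for every gene with a mean of at least 1 FPKM (grey), with the medians by level class (black line), the CV that counting alone would give (dashed line), the phosphate list (squares), the reference genes (circles) and the 12 genes with 1 library apart (triangles). Most phosphate genes and all 12 triangles lie above the median line, while reference genes lie on both sides of it.

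Genes in common use as references ranged from among the steadiest to among the least steady. Of the 22 examined, CBP20, a nuclear cap-binding protein, had 22.2, 22.0 and 22.2 FPKM (CV 0.411%), ACT7 270, 268 and 272 FPKM (0.664%), and GAPC1 355, 357 and 348 FPKM (1.37%). YLS8 (70.9 ± 1.39), TUB2 (126 ± 2.496), RHIP1 (30.3 ± 0.875), TIP41L (18.8 ± 0.766) and SAND (18.0 ± 0.832) also lay below the median CV of genes at 10 FPKM or more, which was 5.56%. TUB6 (96.5 ± 4.88), ACT8 (140 ± 7.54), UBQ5 (351 ± 19.0), PP2AA3 (26.9 ± 1.52) and EF1A (659 ± 37.3) were near it.

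Above it stood AP2M (38.7 ± 2.497), UBC21 (21.4 ± 1.71), TUA3 (89.3 ± 7.53), ACT2 (267 ± 23.4) and PTB1 (12.1 ± 1.21), and then EIF4A1 (91.3 ± 12.6), UBC9 (77.5 ± 11.9) and GAPC2 (721 ± 126). UBQ10 had 140 FPKM in replicate 1 against 52.4 and 58.6 FPKM in the others, a CV of 58.4% that exceeded 99.6% of genes at that level. UBQ11, another polyubiquitin gene, had 146, 140 and 429 FPKM, high in replicate 3. Polyubiquitin genes hold near-identical repeats, so the split of fragments among them is uncertain, and the sum of the 5 was 607, 532 and 813 FPKM.

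The steadiest genes at 10 FPKM or more were of no single kind. YAK1, a protein kinase, had 20.6 FPKM in each library (CV 0.0137%), followed by AT1G19740 (85.2, 85.2 and 85.3 FPKM), ARD2 (31.0, 31.1 and 31.0), RH35 (10.8, 10.7 and 10.7) and NACA5 (56.4, 56.3 and 56.3). EMB2761 (53.9), ERF1-1 (34.0), AT3G54460 (18.6), AMY3 (23.3) and AT1G01230 (23.8 FPKM) completed the first 10. With 3 libraries, CVs below counting error arise among many genes: 15.6% of genes between 10 and 30 FPKM had one.

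Genes of phosphate starvation differed widely between the libraries. Of the 37 examined, a list written after these values had been seen, 33 had a mean of at least 1 FPKM, and replicate 3 was the lowest for 30 of them and replicate 1 the highest for 26. Over all 18445 genes with a mean of at least 1 FPKM, replicate 3 was lowest for 5923 and replicate 1 highest for 5472. The summed list was 1743, 1392 and 769 FPKM. Of the 33 genes 18 differed at least 2-fold in plain FPKM between the highest and the lowest library, against 707 of all 18445 (3.83%). The median gene lay 0.92 lower on the log2(FPKM + 1) scale in replicate 3 than in the mean of the other libraries.

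Genes for recovering and sensing phosphate were among those that differed. PS2 (AT1G73010), a phosphatase, had 77.3, 48.6 and 9.91 FPKM. PEPC1, another phosphatase, had 61.7, 35.3 and 7.13 FPKM, and SPX3, a phosphate sensor protein that restrains PHR1, had 35.6, 22.6 and 3.95 FPKM. In each of these genes replicate 1 was highest and replicate 3 lowest. AT4 and IPS1 are known as non-coding RNAs that sequester a microRNA of the response, but the authors' table types them as protein-coding. AT4 (240, 198 and 81.2 FPKM) and IPS1 (122, 80.5 and 26.0 FPKM) were lowest in replicate 3 as well. So were the lipid-remodelling genes SQD2 (198, 139 and 75.1 FPKM), GDPD1 (112, 79.7 and 36.7), MGD3 (27.0, 19.0 and 5.76) and NPC4 (14.0, 10.8 and 2.68), which replace phospholipids in membranes.

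Transporters varied by member. PHT1;1, a phosphate importer, had 46.4, 42.9 and 30.8 FPKM, PHT1;4 45.7, 37.7 and 23.1 FPKM, and PHT1;2 7.61, 7.06 and 0.872 FPKM. PHT1;1 to PHT1;3 are near copies on chromosome 5, so their split is uncertain, and PHT1;3 was at 0 in every library, as was NPC5. PHR1 itself stood at 44.9, 45.4 and 45.7 FPKM, a CV of 0.872%, and PHO2, which targets the transporters for destruction, at 56.0, 66.5 and 55.3 FPKM. SPX4 (6.60, 6.86 and 8.50 FPKM) and WRKY75 (4.46, 5.54 and 6.72 FPKM) were highest in replicate 3. GNATATNC was present in 14 of 36 promoters of the list and in 6.25% of all promoters, which describes a list written after the values had been seen and tests nothing. Beside these values, ribosomal RNA held 0.412%, 0.401% and 0.192% of the implied fragments and the root list summed to 78.3, 98.1 and 67.6 FPKM, and their part in the result was not tested.

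Other groups also leaned to 1 library. The glucosinolate, flavonoid and hydrogen peroxide sets below were picked from 342 annotated processes after their spread had been seen. Among 25 glucosinolate synthesis genes at 5 FPKM or more, replicate 1 was highest for 19 and replicate 3 lowest for 19. Over all 13189 genes at that level, replicate 1 was highest for 3762 and replicate 3 lowest for 3903. BCAT4, the first enzyme of chain elongation, had 101, 67.1 and 63.0 FPKM, CYP79F1, which commits the methionine-derived chain, 37.0, 21.4 and 22.7 FPKM, and MAM1 120, 85.8 and 90.5 FPKM. CYP79B2, which starts the tryptophan branch, went otherwise with 57.7, 73.7 and 54.1 FPKM. Among 18 flavonoid genes at 5 FPKM or more replicate 3 was lowest for 14. Chalcone synthase (CHS) had 287, 253 and 224 FPKM, F3H 71.4, 64.3 and 55.0 FPKM, and the flavonol synthase FLS1 37.8, 28.2 and 14.1 FPKM.

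Ribosomal proteins were high in the same library. Replicate 3 was highest for 202 of 226 cytosolic ribosomal protein genes with a mean of at least 1 FPKM and for 41 of 47 plastid ones, against 7573 of all 18445 genes. The shift was small, with a median of 0.15 on the log2 scale for the cytosolic genes, as RPS8A shows with 577, 565 and 639 FPKM. The rapid touch and wounding genes were highest in replicate 3 in 11 of 14 cases. TCH4, a cell wall enzyme named for its response to touch, had 9.77, 11.3 and 18.8 FPKM, TCH3 13.3, 13.4 and 18.2 FPKM and the zinc finger factor STZ 2.26, 3.21 and 5.79 FPKM, while TCH2 (13.9, 12.4 and 15.1) and WRKY33 (11.4, 13.1 and 12.8) differed little and CBF1 was lowest at 0.0130 FPKM.

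**Figure D5:**
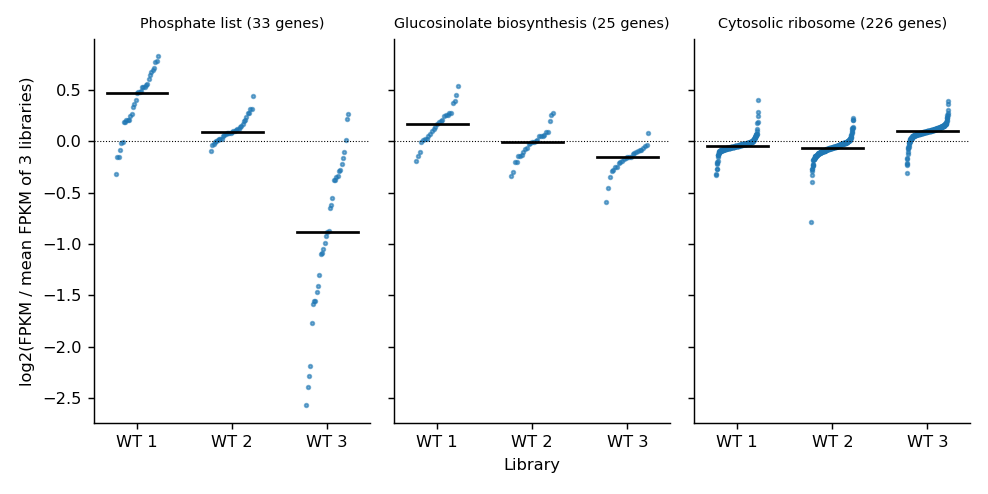
log2 of each gene's FPKM over its mean FPKM in the 3 libraries, with genes sorted within each library (points) and the median (bar), for the phosphate list, the glucosinolate genes and the cytosolic ribosomal proteins. The phosphate genes lie lowest in replicate 3, the glucosinolate genes highest in replicate 1, and the ribosomal proteins slightly higher in replicate 3.

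By number of genes, peroxidases and defence genes leaned to replicate 2. Of 48 genes of hydrogen peroxide breakdown at 5 FPKM or more 28 were highest there, against 3497 of all 13189 genes at that level. Among them were PER34 (45.3, 80.0 and 39.1 FPKM) and PER45 (22.4, 38.4 and 25.6 FPKM). The members with the highest means were instead highest in replicate 1: CAT2 (784, 773 and 743 FPKM), PER42 (715, 591 and 498) and APX1 (352, 317 and 288). The root list was highest in replicate 2. Of 20 salicylic acid genes with a mean of at least 1 FPKM, again a list written after values were seen, 12 were highest in replicate 2, against 5400 of all 18445 genes. PR1, the classic marker of salicylic acid, had 6.75, 31.0 and 4.83 FPKM and SAG13 3.41, 21.3 and 11.6 FPKM. AZI1 (123, 99.4 and 92.5 FPKM), EARLI1 (30.7, 35.5 and 30.9) and WRKY70 (11.3, 16.0 and 12.6) differed less, and WRKY38 was lowest at 0.198 FPKM.

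Among genes at 10 FPKM or more, those with the highest CV mostly had 1 library far from the others. UGT72B1, a glucosyltransferase, had 1.86, 45.5 and 1.23 FPKM, and AT1G33590 2.55, 0.928 and 32.7 FPKM. MT2A, a metallothionein, had 273, 35.2 and 33.2 FPKM, and AT4G12490 4.98, 28.3 and 4.57 FPKM. After PR1 came AT3G10020 (23.1, 0.712 and 33.5 FPKM), ATCTH (64.2, 0.668 and 79.4), GRP23 (104, 3.02 and 123) and NIFS1 (3.15, 60.6 and 59.2), with PEPC1 as the tenth.

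Under a rule set after this had been seen, 12 of 9512 genes had 1 library at least 4-fold from the nearest other while the other 2 lay within 25% of each other. In 10 of them that library was low, and it was replicate 1 for 4 genes, replicate 2 for 5 and replicate 3 for 3. Their known roles differ: ATCTH is a zinc finger protein, GRP23 a glycine-rich protein, NIFS1 the mitochondrial cysteine desulfurase and TIM17-2 (12.1, 71.7 and 75.6 FPKM) a subunit of the mitochondrial import channel. TIF3D1, a translation initiation factor subunit, had 37.2, 39.9 and 4.13 FPKM, RER3 48.4, 47.4 and 5.31 FPKM, and HSP70-3, a chaperone, 89.4, 13.8 and 88.6 FPKM. ATCTH lies at chr2:11041331-11043256 and NIFS1 at chr5:26296025-26298091. Of the 23 nearest genes at 10 FPKM or more on either side of the 12, 0 met the same rule, and their median CV was 5.35%. The cause of these single-library values was not tested.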

How the data were processed

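The FPKM values are those the authors deposited; the unit is not in the header and was taken from the behaviour of the values. The submitters' processing notes list HISAT2 and StringTie without versions and the genome build TAIR10. How reads were counted, on which strand and with which annotation release, is not stated, and fragments of overlapping or antisense genes cannot be told apart. All value columns were mapped to samples, and only the 3 wild-type columns were used. Low FPKM values multiplied by length were whole multiples of a common step (within 0.01 reads) for 84.0%, 84.6% and 84.2% of values, which implied the fragment numbers given; no counts were recovered. Errors from these numbers cover counting only.

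With 1 group there was no comparison between groups and no test. The mean, SD, CV and rank over 3 libraries were computed with pandas 2.3.3 and numpy 2.4.6 under Python 3.11.15; matplotlib 3.10.9 drew the plots. A gene was called detected at 1 FPKM or more in all 3 libraries; a CV was read from a mean of 1 FPKM, and named genes of high or low CV from 10 FPKM. Differences between libraries were taken on log2(FPKM + 1). The steps were run on simulated counts that held counting error and a set of lowered genes but no other spread, so this checks the arithmetic only. The phosphate, salicylic acid and polyubiquitin lists and the rule for 1 library apart were written after values had been seen. The lists held 346 written entries, 343 matched by symbol and 3 by description, and ribosomal proteins came from descriptions. Named genes were the 20 highest nuclear, 5 highest of each organelle, 3 highest of each gene type, 10 highest and lowest by CV, and the 4 highest and the lowest of each list, of which the text gives most; 1 gene that the rule took is not reported here. The members and lists were chosen with earlier results of these data known. Of the gene IDs 32548 were in RefSeq TAIR10.1, 32532 with the same start and end, and promoters were read there.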

Additional observations from a re-analysis of the deposited data

How the results depend on the processing

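The 6 summary values, and the ranks of the named genes, were recomputed without each library in turn, after rescaling, with genes weighted by length and with other thresholds. Of 40 recomputed values 29 moved by less than the spread between libraries, or for counts by less than 1.5 times. Leaving out 1 library cannot move a mean share by that spread, so for the photosynthesis and plastid shares this outcome was fixed. The values on the log2 scale were counted as moved because their unit differs. The count is therefore no measure of stability. Without 1 library the number of detected genes was 17973 to 18076 (17809 with all 3), the genes that held 50% of the summed FPKM were 685 to 700 (696), the share of the 20 highest genes 14.2% to 14.3%, the share of the photosynthesis lists 21.3% to 21.6%, the plastid share 0.190% to 0.2499%, and the median CV, over 2 libraries, 5.12% to 6.37% (7.25%), lowest without replicate 3. The median CV was 8.94% for genes with a mean of at least 0.1 FPKM, 5.97% from 5 FPKM and 5.56% from 10 FPKM. As an SD it was 0.092 of log2(FPKM + 1) and 0.10 of log2(FPKM + 0.1). Weighting by length, which counts fragments in place of FPKM, gave 11.4% for the 20 highest genes and 16.7% for photosynthesis, since it weighs short genes less. Leaving out ribosomal RNA and mitochondrial genes gave a plastid share of 0.0921%, since plastid ribosomal RNA went with them. By the median in place of the mean 19 of the 20 highest nuclear genes stayed. No paired analysis was possible because 1 group alone was analysed. Low levels are limited by depth, since 1 fragment on a gene of median length is worth 0.0153 to 0.0177 FPKM.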
